A study of Homo sapiens with 6 samples.

Results

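The genes described here code for the proteins of the cytoplasmic ribosome and for their paralogs, chosen by their symbols in the platform annotation (names that start with RPL or RPS and a number, without pseudogenes, antisense names and the S6 kinase genes). Only probe sets whose annotation names 1 gene were used for genes, 16098 of 53617, and the 14884 genes they name are called all genes below. Of these, 55 matched. They comprised 28 large subunit genes, 17 small subunit genes, 8 paralogs with an L after the number, and 2 transcripts that share the prefix but are no ribosomal protein genes of their own, the divergent transcript RPL34-DT and the read-through RPL36A-HNRNPH2. The 53 genes of the first 3 classes are called members below. A gene is called measured below where a probe set names it alone. Genes not measured in this sense may still be covered by other probe sets of the array. A further 32 protein-coding genes of the same naming in RefSeq, such as RPLP0, RPL5, RPS3A and RPSA, were not analysed here.

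The cells of both groups were A549, a line from a human lung adenocarcinoma, and grew for 7 days as 2D cultures on attachment plates in DMEM with serum. LA717, an agar of low molecular weight, was present at 0.03% (w/v) in the medium of the LA717 group, and Milli-Q water took its place in the control group. Each group had 3 arrays, each with a log2 intensity for 53617 probe sets, and where several probe sets named a gene the brightest on average stood for it. The plate type is not labelled uniformly: 1 label of the LA717 arrays says low-attachment, against attachment in their titles and treatment protocol. The labels do not say whether the 3 samples of a group came from separate cultures. The study's supplement describes its array comparison of 2D cultures with LA717 spheroids as independent experiments, without naming the 2D cultures with LA717. The p-values measure the spread between these samples, which may in part be technical.

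The 6 arrays had medians between 3.19 and 3.23 (log2 intensity), and the number of arrays limits the precision. The 5 epithelial markers measured lay above the median of all genes (4.71), with KRT18 highest at 11.13 and KRT7 lowest at 5.71 in control. Of 6 alveolar type II markers LPCAT1 (7.89) was well above it, SFTPD (4.76) near it, and SFTPC, SFTPB, NKX2-1 and NAPSA lay below it, between 3.39 and 4.32. The 3 endothelial markers measured (2.95 to 3.15), DCN (1.70) and LYZ (3.59) lay below it, while the fibroblast marker THY1 (5.17) and the leukocyte marker CD14 (7.86) lay above it. LYZ differed by −0.34 between the groups and NAPSA by −0.27, and their part in the results was not tested.

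Ribosomal proteins assemble with ribosomal RNA into a large and a small subunit, and a growing cell devotes much of its transcription and translation to making them. Their mRNAs typically begin with a C followed by an unbroken run of pyrimidines, the 5′ terminal oligopyrimidine (TOP) element, through which mTORC1 and the RNA-binding protein LARP1 set their translation together. Paralogs such as RPL39L, RPL10L and RPL3L are copies with a more restricted expression, in testis for the first pair and in striated muscle for the last.

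The start sites of some members are shown because many of these genes, though few of the paralogs, are annotated with a TOP-like start. Each window below holds 25 bases before and 15 bases from the annotated first base of the transcript on, 5′ to 3′, from RefSeq (GRCh38.p14), and capitals mark the run of C or T that starts with a C at that first base, where it holds at least 5 bases.
RPL39, chrX:119791616-119791655, minus strand: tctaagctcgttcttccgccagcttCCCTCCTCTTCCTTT
RPL12, chr9:127451392-127451431, minus strand: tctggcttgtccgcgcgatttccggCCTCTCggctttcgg
RPS18, chr6:33272050-33272089, plus strand: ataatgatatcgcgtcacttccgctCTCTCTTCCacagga
RPL22, chr1:6199581-6199620, minus strand: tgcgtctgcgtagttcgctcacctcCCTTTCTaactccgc
RPL22L1, chr3:170870181-170870220, minus strand: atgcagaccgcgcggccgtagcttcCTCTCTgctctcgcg
RPS27, chr1:153990737-153990776, plus strand: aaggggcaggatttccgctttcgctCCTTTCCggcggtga
RPS27L, chr15:63157463-63157502, minus strand: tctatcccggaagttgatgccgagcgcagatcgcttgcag
RPL10L, chr14:46651767-46651806, minus strand: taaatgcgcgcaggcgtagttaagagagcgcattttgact
In RPL39 the run went on past the window and was 19 bases long. RPS27L and RPL10L have no C at the annotated start, so no base of theirs is capitalised.

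Promoter sequences were at hand for 48 of the 53 members. A start of this kind, read on the transcribed strand only, was annotated in 30 of 42 large and small subunit genes (71.4%) and in 1 of 6 paralogs, RPL22L1. Over all 27305 genes of the sequence table the share was 5.14%. The large and small subunit genes shown above all have such a start. RPL10A and RPL32, which are not shown, have it at no annotated first base. Where the run could begin anywhere within 10 bases of the annotated start, the shares were 90.5% of the large and small subunit genes, 33.3% of the paralogs and 38.4% of all genes. The median difference between LA717 and control was 0.11 in the 31 members with such a run at the first base, 28 of them positive, and 0.09 in the 17 without it, 14 of them positive.

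LA717 was set against control to see how transcription in attached cells differs when the agar is present. With LA717 the means of 45 of 53 members were above those in control, where 50.1% of all probe sets and 47.9% of all genes had a positive difference. The amounts were small, with a median difference of 0.09 (LA717 minus control, log2) over the members against −0.01 over all genes. No member passed the test. The lowest adjusted p among them was 0.917 (limma, Benjamini-Hochberg over all probe sets), and 0 of 53617 probe sets passed (0%). The 95% interval excluded a 2-fold difference in either direction in all 53 members. It did so too in 14826 of all 14884 genes and in 51842 of 53617 probe sets, so this is no trait of the members.

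At an unadjusted limma p under 0.05 there were 7 members higher with LA717 (RPL39L, RPL39, RPL22L1, RPS18, RPL10A, RPL35 and RPL12) and 1 lower (RPL32). The background of this count was 2.72% of all probe sets on the high side and 2.59% on the low side, or 1.89% and 2.51% of all genes. When single arrays were left out, the count on the high side was 4 for control replicate 2, 4 for control replicate 3, 2 for LA717 replicate 2 and 3 for LA717 replicate 3. The background of these reduced counts was not computed. In 23 members all 3 LA717 values lay above all 3 control values, and in 1 member, RPL32, all lay below. Such separation was seen on the high side in 5.35% of all probe sets and 4.86% of all genes, and on the low side in 5.73% and 6.66%. Of 49 genes checked singly, 26 had a difference that turned or moved by over 1.5 times when 1 array was left out. RPL39L, RPL39, RPL22L1, RPS18, RPL10A, RPL35, RPL12 and RPL32 were checked and not among these 26. Other genes given below, such as RPL11, RPS6, EEF2 and EEF1G, were not checked in this way. The members share the same 6 arrays, so their counts are not those of independent trials.

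**Figure D1:**
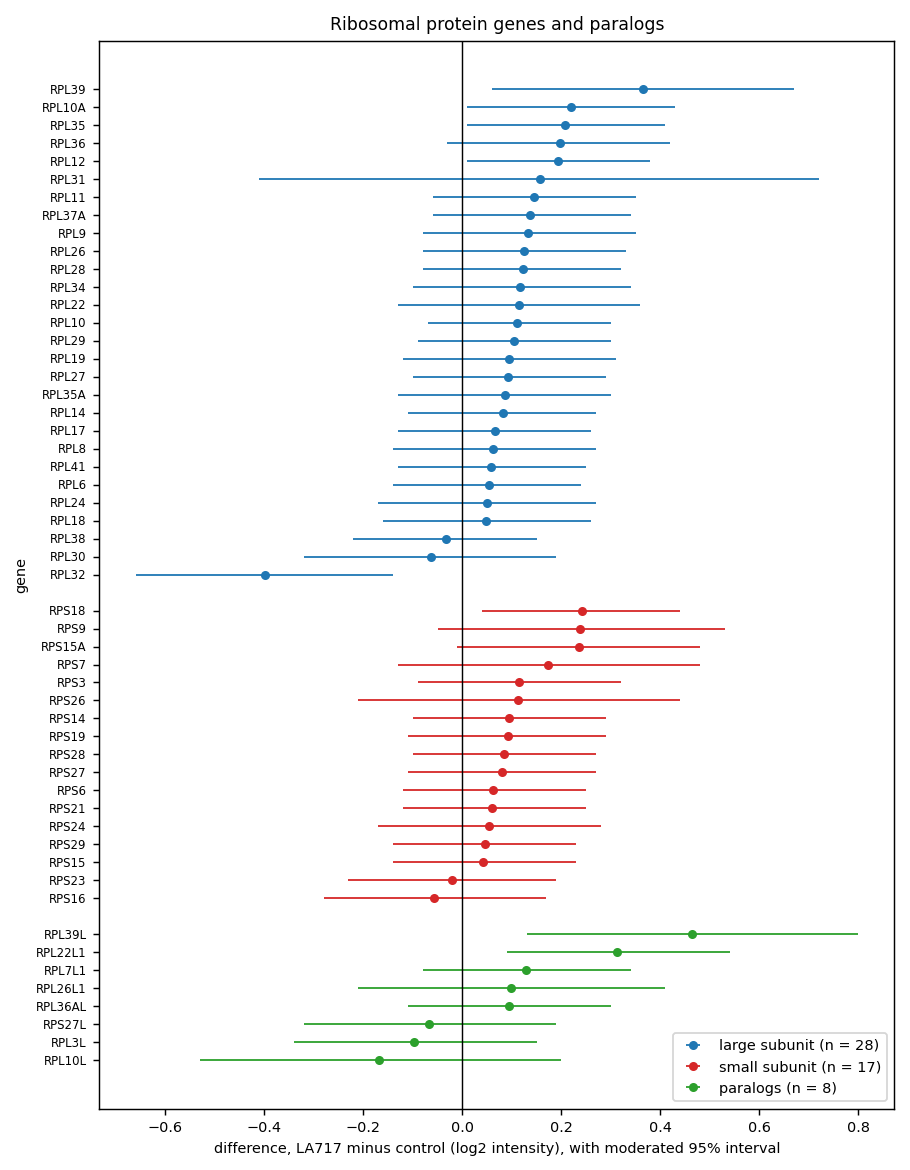
Difference between the group means (LA717 minus control, log2 intensity) of each of the 53 members, with 3 arrays per group; bars are moderated 95% intervals from limma. Of the 28 large subunit genes 25 lie right of 0, of the 17 small subunit genes 15, and of the 8 paralogs 5, while RPL32 stands apart on the left at −0.40.

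On each array the intensity was averaged over the genes of a class. For the large subunit genes these means were 7.192, 7.184 and 7.168 on control arrays 1 to 3 and 7.255, 7.273 and 7.300 on LA717 arrays 1 to 3. For the small subunit genes they were 7.848, 7.809 and 7.853 in control and 7.937, 7.932 and 7.933 with LA717. In both classes every LA717 array lay above every control array. The paralogs gave 4.925, 4.939 and 4.993 in control and 5.0, 5.028 and 5.116 with LA717, so that control replicate 3 and LA717 replicate 1 nearly met. The mean over all 14884 genes lay between 4.886 and 4.908 on the 6 arrays, with groups that overlapped. LA717 replicate 3 held the highest of the 6 values in 24 of 53 members, and control replicate 2 the lowest in 23. The median over all members was 0.0744 without LA717 replicate 3 and 0.0752 without control replicate 2, against 0.0948 with all arrays.

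**Figure D2:**
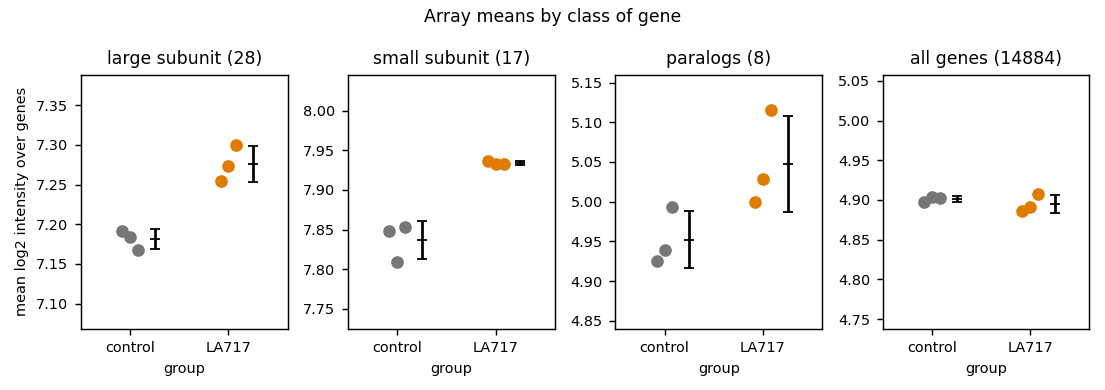
Mean log2 intensity per array over the genes of each class (points, 3 arrays per group) with the group mean and SD beside them; all panels span the same height of 0.32. The LA717 arrays lie above the control arrays for both subunits, from 7.255 to 7.300 against 7.168 to 7.192 for the large one, while those of all genes overlap.

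Members were bright, with a median level of 6.09 against 4.71 for all genes, and 20 of 53 were among the 1489 brightest genes. Bright genes as a whole had mostly negative differences of small size. Of the 1489 brightest genes 38.1% were positive and their median was −0.02, whereas 18 of the 20 members among them were positive, with a median of 0.09. Among the 3721 genes with levels from 4.71 to 6.47, 19 of 21 members were positive against 48.6% of all genes in that range. The dimmer members did not stand out in this way. At levels from 3.06 to 4.71, 4 of 7 members were positive against 52.6% of all genes there. The 1 member below that, RPL10L, had a negative difference. Replicates of the members were close, with a median SD within groups of 0.0701 against 0.128 for all genes and 0.0762 for the 1489 brightest. Each array measured the RNA of a whole culture, normalized before deposit, and no member passed the test. More ribosomal protein mRNA in every cell, a larger share of cells rich in it, and no difference at all therefore cannot be told apart. A change in the total RNA of a cell would not be seen.

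**Figure D3:**
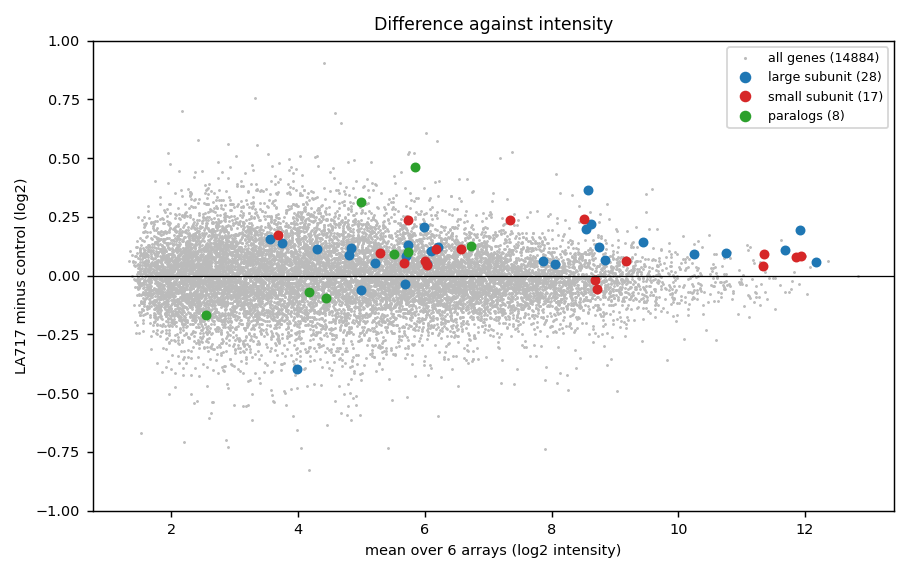
Difference between the groups (LA717 minus control, log2) against the mean over all 6 arrays (log2 intensity) for 14884 genes (grey) and for the 3 classes of members (colours). Most members from a level of 4.71 upwards lie above 0, whereas the 1489 brightest genes have a median of −0.02. Of the 7 members between 3.06 and 4.71, 4 lie above 0.

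Among the large subunit genes the difference on the high side was greatest in RPL39, whose short protein lines the tunnel through which the new chain leaves the ribosome. Its values were 8.56, 8.18 and 8.46 in control and 8.87, 8.83 and 8.60 with LA717. All LA717 values lay above the control values, the nearest pair by little. The difference was 0.37 (95% interval 0.06 to 0.67, limma adjusted p = 0.92), and a dimmer second probe set of the gene gave 0.05.

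RPL10A stood at 8.55, 8.51 and 8.52 in control and at 8.63, 8.80 and 8.80 with LA717. RPL35, a protein at the mouth of the exit tunnel, stood at 5.88, 5.83 and 5.94 and at 6.03, 6.11 and 6.15. RPL36 stood at 8.45, 8.33 and 8.54 and at 8.60, 8.60 and 8.73. In these genes too the groups did not overlap, with differences of 0.22, 0.21 and 0.20 in the same order. RPL12, a protein of the stalk base where elongation factors dock, was among the brightest members, at 11.84, 11.84 and 11.80 in control and 12.02, 12.06 and 11.98 with LA717. Its difference of 0.19 had an interval from 0.01 to 0.38 (limma adjusted p = 0.92).

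RPL41, the smallest ribosomal protein, was the brightest member at 12.14 ± 0.055 in the control group and 12.20 ± 0.028 in the LA717 group (SD, n = 3), with a difference of 0.06. Its 4 further probe sets gave differences between 0.07 and 0.13, with groups that overlapped. The dimmest of this subunit were RPL31 (3.34, 4.0 and 3.07 in control, 3.91, 3.49 and 3.48 with LA717), whose groups overlapped widely and whose sign turned without control replicate 3, and RPL37A (3.67, 3.70 and 3.65 against 3.86, 3.85 and 3.72). Low differences were those of RPL18 (0.05), RPL38 (−0.03) and RPL30 (−0.06), each with groups that overlapped. The other 13 genes (RPL6, RPL8, RPL9, RPL11, RPL14, RPL17, RPL19, RPL24, RPL27, RPL28, RPL29, RPL34 and RPL35A) were positive throughout, from 0.05 to 0.14. RPL11, which can also bind and inhibit the p53 regulator MDM2, was at the upper end of these, with 9.33, 9.44 and 9.35 in control and 9.60, 9.49 and 9.48 with LA717.

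RPL32 went against its class. The values were 4.27, 4.19 and 4.13 in control and 3.78, 3.64 and 3.97 with LA717, a difference of −0.40 (interval −0.66 to −0.14, limma adjusted p = 0.917). Its probe set was dim, and leaving out single arrays gave between −0.485 and −0.317. The pseudogene RPL32P3 was at 3.74, 3.78 and 3.71 in control and 3.91, 4.37 and 4.32 with LA717, a difference of 0.45 in the other direction (interval 0.14 to 0.77, limma adjusted p = 0.92). The annotation does not give probe sequences, so whether these probe sets also take up RNA of other copies of the gene was not tested. The same holds for the other members, most of which have processed pseudogenes close to them in sequence.

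In the small subunit the highest differences were those of RPS18, RPS9 and RPS15A, each 0.24. RPS18, a protein of the head of the subunit, was at 8.34, 8.41 and 8.41 in control and 8.55, 8.66 and 8.68 with LA717 (interval 0.04 to 0.44, limma adjusted p = 0.92). A second probe set gave 0.10, with groups that overlapped. By its number the brighter probe set falls among those of genes on chromosome 3. The number of the second falls among those of chromosome 6, where RPS18 lies. Which RNA each of them takes up was not tested. RPS9 was at 5.63, 5.57 and 5.66 in control and 6.11, 5.71 and 5.74 with LA717, so 1 array carried much of its difference, which was 0.111 without LA717 replicate 1. RPS15A was at 7.41, 7.15 and 7.14 in control and 7.43, 7.44 and 7.53 with LA717, where control replicate 1 nearly reached the LA717 values. RPS7 followed with 0.17 and groups that overlapped, at 3.83, 3.35 and 3.59 against 3.80, 3.78 and 3.71, and it was the dimmest gene of its subunit. Here too 1 array, control replicate 2, carried much of the difference, which was 0.0515 without it and 0.291 without control replicate 1.

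The brightest small subunit genes were RPS28 (11.88, 11.90 and 11.90 in control, 11.98, 11.96 and 11.99 with LA717) and RPS27 (11.84, 11.76 and 11.86 against 11.91, 11.90 and 11.88). Both had groups that did not overlap and differences of 0.08, within intervals that included 0. By its number the probe set of RPS28 (chromosome 19) falls among those of chromosome 11 genes. That of RPS27 (chromosome 1) falls among those of chromosome 12 genes. Whether they take up RNA of other copies was not tested. RPS14, whose loss marks the 5q deletion of myelodysplastic syndrome, differed by 0.10. At the low end stood RPS29 (0.04), RPS15 (0.04), RPS23 (−0.02) and RPS16 (−0.06), and the signs of RPS23 and RPS16 turned when single arrays were left out. The 6 genes not yet given were RPS3, RPS6, RPS19, RPS21, RPS24 and RPS26, with differences from 0.05 to 0.12. Among them RPS6, the protein that the S6 kinases phosphorylate below mTORC1, had 5.95, 5.96 and 6.0 in control and 6.04, 6.02 and 6.03 with LA717, a difference of 0.06 with groups that did not overlap.

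The 2 highest differences among paralogs, and with RPL39 the 3 highest of all members, were those of RPL39L and RPL22L1. RPL39L (chromosome 3), a copy of RPL39 (chromosome X) known from testis and from some tumours, was at 5.31, 5.74 and 5.79 in control and 6.08, 5.98 and 6.17 with LA717. The LA717 values were close together, and control replicate 1 lay well below the other two of its group. The difference was 0.46 (interval 0.13 to 0.80, limma adjusted p = 0.92), and 0.313 without control replicate 1. RPL22L1, which can take the place of RPL22 in the large subunit, was at 4.80, 4.85 and 4.89 in control and 5.05, 5.15 and 5.29 with LA717, a difference of 0.31 (interval 0.09 to 0.54, limma adjusted p = 0.92).

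The gene that a paralog is named after was measured for 5 of the 8. RPL22 itself was at 4.27, 4.32 and 4.14 in control and 4.36, 4.23 and 4.49 with LA717, with groups that overlapped and a difference of 0.11, which was 0.0478 without LA717 replicate 3, 0.0642 without control replicate 3 and 0.182 without LA717 replicate 2. RPL26 and RPL26L1 differed by 0.12 and 0.10, with groups apart in the first and overlapping in the second. The first was 0.0778 without LA717 replicate 2, and the second ran from −0.0026 without control replicate 3 to 0.205 without control replicate 1. RPL10 was at 11.64, 11.63 and 11.65 in control and 11.72, 11.79 and 11.74 with LA717 (0.11). RPL10L, its intronless copy, was the dimmest member at 2.62, 2.33 and 2.96 against 2.48, 2.49 and 2.44 (−0.17), below the median of all probe sets (3.19), and its difference was −0.0052 without control replicate 3 and −0.322 without control replicate 2. RPS27 gave 0.08 and RPS27L, a p53 target in human cells, −0.07 (4.24, 4.32 and 4.07 in control, 4.0, 4.18 and 4.25 with LA717). Whether a paralog differed from its partner in response was not tested.

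Of the remaining paralogs RPL7L1 differed by 0.13, with groups that did not overlap (6.69, 6.65 and 6.64 against 6.71, 6.76 and 6.90), and by 0.0744 without LA717 replicate 3. RPL36AL gave 0.09 and RPL3L −0.10, both with groups that overlapped. Without LA717 replicate 2 they were 0.0474 and −0.0387. The median of the paralogs, 0.10, was 0.046 without LA717 replicate 3. The transcripts RPL34-DT and RPL36A-HNRNPH2 were dim, with values of 3.24, 3.05 and 3.08 in control against 3.15, 3.53 and 2.93 for the first and of 3.25, 3.38 and 2.96 against 3.16, 3.27 and 3.45 for the second. Their groups overlapped, and the differences were 0.08 and 0.10.

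**Figure D4:**
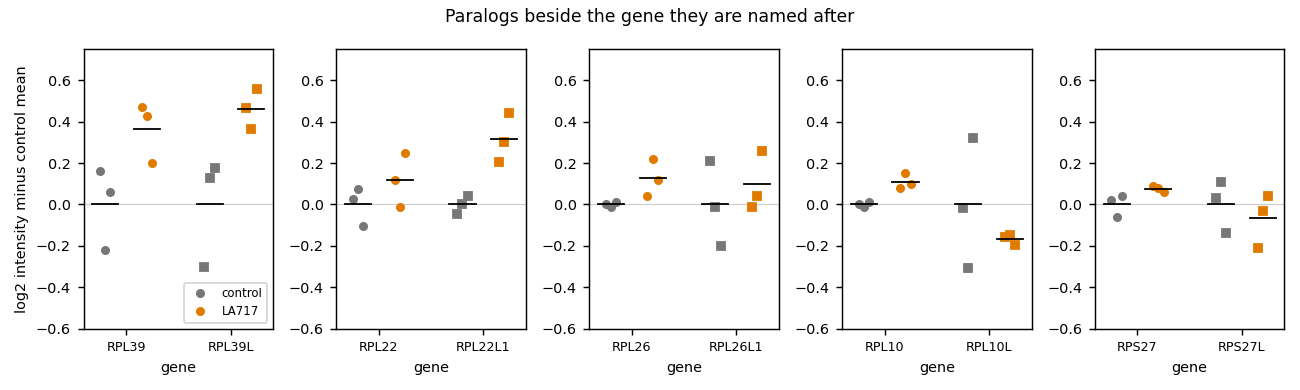
Log2 intensity minus the control mean of the same gene for 5 paralogs (squares) and the genes they are named after (circles), with 3 control (grey) and 3 LA717 (orange) arrays each and bars at the group means. The LA717 values of RPL39, RPL39L, RPL22L1, RPL26, RPL10 and RPS27 lie above all their control values. Those of RPL10L lie within them, and those of RPL22, RPL26L1 and RPS27L overlap with them.

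Genes that act with the ribosomal proteins were read from lists in the same fit, and 0 of their members passed the adjusted test. As background for all the lists, 47.9% of all genes had a positive difference. At an unadjusted limma p under 0.05, 1.89% of all genes were higher and 2.51% lower. Of 30 ribosome assembly factors 23 were measured. In these 18 differences were positive, the median was 0.06, and the count at an unadjusted limma p under 0.05 was 0. The rRNA methyltransferase gene FBL was at 10.38, 10.36 and 10.45 in control and 10.54, 10.59 and 10.57 with LA717, a difference of 0.17, and RRS1 gave 0.19 with groups that overlapped. The RNA polymerase I list had 3 of 14 genes measured, all positive, with POLR1F and POLR1H at 0.16, the latter 0.0524 without control replicate 2 and 0.244 without control replicate 3. FAU, which codes for the small subunit protein eS30 fused to a ubiquitin-like part, gave 0.01, with a sign that turned without control replicate 1 or LA717 replicate 1.

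Other transcripts known to start with a TOP element, among them elongation factor genes and non-coding hosts of small nucleolar RNAs, were positive in 10 of 12, with a median of 0.07. At an unadjusted limma p under 0.05, 3 of the 12 were higher and 0 lower. GAS5, a host gene, was at 6.15, 6.08 and 5.88 in control and 6.36, 6.27 and 6.49 with LA717 (difference 0.34, limma adjusted p = 0.92), the host gene SNHG8 gave 0.28 with groups that overlapped, and the splicing regulator gene HNRNPA1 gave 0.29 with groups apart. The elongation factor genes EEF2 (0.06) and EEF1G (0.06) were bright and differed less. The probe set of EEF1G (chromosome 11) falls by its number among those of chromosome 7 genes. EEF1A1 (0.02) and EEF1D (0.07) were dimmer, at mean levels of 5.21 and 4.46, and also differed less.

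Of the upstream regulators, the mTORC1 list had 6 of 10 measured genes positive, with a median of 0.04. At an unadjusted limma p under 0.05, 1 gene of this list, DDIT4, was higher and 0 were lower. The greatest differences of the list were 0.30 for DDIT4, an inhibitor of mTORC1 (8.75, 8.73 and 8.69 in control, 8.94, 9.10 and 9.04 with LA717), and −0.18 for TSC1, another inhibitor (7.27, 7.25 and 7.20 against 6.92, 7.10 and 7.17), which was −0.106 without LA717 replicate 1. MYC, a transcription factor that drives ribosome synthesis, was at 7.66, 7.87 and 7.73 in control and 7.88, 7.98 and 7.94 with LA717, a difference of 0.18 (interval −0.03 to 0.40). Of its partners MXI1 gave −0.13, with the opposite sign (0.156) on its dimmer probe set. The p53 and ribosomal stress list had 2 of 5 positive, with SESN1 at −0.19 and SESN2 at −0.15, and a median of −0.02. The groups of SESN1 overlapped and those of SESN2 did not. SESN1 was at −0.302 without LA717 replicate 2 and at −0.122 without LA717 replicate 3.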

How the data were processed

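Total RNA of A549 cells was analysed on GeneChip Human Gene 2.0 ST arrays, 3 per group. The deposited table gives each probe set a normalized log2 intensity on every array. Affymetrix Expression Console is the tool in the submitters' processing notes. Its version and the summarisation method are not given in sources used here. The labelling kit in the labels is of the 3′ IVT kind, which belongs to another array type, and the log2 scale was read from the range of the values, which were used as deposited.

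Groups came from the sample titles. The difference LA717 minus control was fitted for all 53617 probe sets by lmFit and eBayes of limma 3.58.1 (R 4.3.3) without a block, with two-sided p-values and Benjamini-Hochberg adjustment at 0.05, after a test on simulated data. Gene names came from the platform annotation, and start sites from RefSeq by Entrez identifier. Genes named singly were the paralogs with their partners, the 4 highest and 4 lowest differences, the 2 brightest and 2 dimmest of each subunit, members with an unadjusted p under 0.05, and up to 2 of each list. RPL11, RPS6, SNHG8, EEF2, EEF1G, EEF1A1, EEF1D and RPL32P3 were added after their values were seen. Of these, SNHG8 and RPL32P3 were checked under the alternatives, and the others were not. The members and lists were chosen with earlier results of these data known. Alternatives concerned the variance prior, array weights, the replicate block, normalization, filters, the probe set of a gene, and leaving out each array. RPS19BP1, a binding partner, was left out. Counts, start sites and plots used Python 3.11.15 and matplotlib 3.10.9. A planned comparison of protein sequences between paralogs and their partners was not made.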

Additional observations from a re-analysis of the deposited data

How the results depend on the processing

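The numbers of probe sets and of members at an adjusted p under 0.05 by limma were 0 under each alternative run, and 45 or more members had a positive difference under each of them except without control replicate 3 (43). The number of members higher at an unadjusted p under 0.05 was 11 with an intensity trend, 4 with median centring, 4 with the replicate block and 2 to 5 with each array left out, and that of members lower 1 to 2. For these settings the share over all probe sets was not computed. The replicate numbers were not treated as pairs, since correlations of the deviations of arrays with equal numbers were 0.024, 0.0149 and 0.0329, the highest for each array but small. With each array left out, members whose groups did not overlap numbered 24 to 31 on the high side and 1 to 3 on the low side. Such a count can only grow with fewer arrays, and its share over all probe sets was not computed with each array left out. The median difference then ran from 0.0744 to 0.105 for all members, 0.0731 to 0.109 for the large subunit, 0.0645 to 0.102 for the small one and 0.046 to 0.127 for paralogs, and it was 0.0648 for the small subunit after quantile normalization. Of 783 values of the 49 genes checked in these settings, 772 had the sign given above and 0 passed adjustment. With each array left out, FAU ran from −0.0353 (control replicate 1) to 0.0593 and was −0.0327 for LA717 replicate 1, RPL26L1 from −0.0026 (control replicate 3) to 0.205, RPL31 from −0.0435 (control replicate 3) to 0.421, RPL30 from −0.135 to 0.0285 (LA717 replicate 1), RPS27L from −0.137 to 0.00311 (LA717 replicate 1), RPS16 from −0.107 to 0.00846 (control replicate 2), and RPS23 from −0.0536 to 0.0237 (control replicate 2), with 0.00147 for LA717 replicate 3. MXI1 was at 0.0123 with the mean of its probe sets and 0.156 with the dimmer one. For all of them the cause was not tested. No value of signal over background comes with the table, which limits what can be said of dim probe sets such as those of RPL10L and RPL31.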

Other observations

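The arrays also named 25 ribosomal protein pseudogenes, mostly dim, with a median level of 3.29 (log2 intensity). Of these 15 (60.0%) had a positive difference (LA717 minus control), with a median of 0.07, against 47.9% of all genes. At an unadjusted limma p under 0.05 there was 1, RPL32P3, on the high side. Of all genes 1.89% were higher and 2.51% lower at that threshold. After adjustment 0 passed. The brightest were RPL13AP20, at 11.04, 10.92 and 11.08 in control and 11.04, 11.24 and 11.14 with LA717, and RPL21P28, at 8.97, 9.02 and 8.95 against 8.94, 9.33 and 9.12, both with groups that overlapped.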
